A study of Mus musculus with 5 samples.

Results

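Gliosis of Müller glia (MG) was followed through 10 genes, *Gfap*, *Vim*, *Nes*, *Lcn2*, *Serpina3n*, *Timp1*, *Cd44*, *Edn2*, *Stat3* and *Socs3*, of the 33696 genes that all libraries counted. The genes were chosen as known genes of the glial injury response and not by their values, although earlier results of these data were known. They were read in 6540 MG among 10749 cells that passed the quality limits, of 15293 cells in 4 single-cell libraries. MG were cells with at least 1000 UMIs (unique molecular identifiers, 1 per captured transcript), at most 15% mitochondrial UMIs and at least 0.5% of UMIs on *Glul*, *Rlbp1*, *Slc1a3*, *Clu* and *Aqp4*, none of which is among the 10 genes. All mice were C57BL/6J *Glast-CreERT2*; *Rosa26-Ai65*, 12 to 20 weeks old, of both sexes, and had received tamoxifen. One group was injected with ShH10-GFAP-mKate2 AAV, the control (16 pooled retinas), and the other with an AAV of the same design carrying *Yap5SA*, an active form of the transcriptional co-activator YAP (21 pooled retinas), 56 days before sorting for tdTomato. The authors give a higher titre for the *mKate2* AAV than for the *Yap5SA* AAV, at the same injected volume. Cargo and viral dose therefore cannot be told apart. Both AAVs also carry the FlpO recombinase, and a *Gfap* promoter drives the cargo, so the tdTomato label itself depends on a promoter of 1 of the genes described here. Every retina in both groups was injected and dissociated, so no resting, uninjected level of these genes was measured.

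MG span the retina and support its neurons. After injury they change shape, increase intermediate filaments and release acute-phase proteins and cytokines, a response called reactive gliosis. Ligands of the gp130 receptor family, such as CNTF, LIF and oncostatin M, are among its best known triggers in the retina. They act through JAK kinases on the transcription factor STAT3, whose target SOCS3 in turn inhibits the pathway. GFAP, absent or low in resting MG of the mouse, is the usual marker of the response, whereas vimentin is present in resting MG as well.

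Libraries are named by AAV and replicate, and values are given in the order *mKate2* AAV replicate 1, *mKate2* AAV replicate 2, *Yap5SA* AAV replicate 1 and *Yap5SA* AAV replicate 3. They held 1498, 2898, 803 and 1341 MG, with median depths of 6194.5, 2918.5, 10778 and 2920 UMIs per cell. *Yap5SA* AAV replicate 2 shared 1361 barcodes with replicate 1 (99.8% of the smaller library) and was left out as the same cells, whereas other pairs of libraries shared at most 0.218%. File headers name Cell Ranger 8.0.0 for both first replicates and 9.0.1 for *mKate2* AAV replicate 2 and *Yap5SA* AAV replicate 3, and these processing versions coincided with other differences. Dissociation stress genes, 20 immediate-early and heat shock genes, summed to 2325 and 3998 CPM (UMIs scaled to 1000000 UMIs in the cells summed) in MG of the first 2 and to 28960 and 19292 CPM in MG of the last 2 of these libraries. Rod markers (10 genes) in MG summed to 123.5 and 10.3 CPM against 1038 and 1938 CPM. Of the MG, 84.3% lay in clusters named MG by their markers, 13.3% in unnamed clusters and 1.27% in a cluster of pigment epithelium. These are shares of cells and not of summed UMIs. Of the *Vim* UMIs of MG, clusters named MG held 93.7%, 53.9%, 91.4% and 69.8%. In the 9.0.1 libraries more of them thus came from other clusters. Clusters named MG included 1 led by lens crystallins (73 MG). Nothing states that the libraries came from separate animals, so tests measure the spread between libraries.

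Among the intermediate filament genes, *Gfap* varied most between libraries and *Vim* least. *Gfap*, the glial fibrillary acidic protein (chromosome 11 from 102778159 to 102791738, GRCm39), stood at 24.2, 284, 125 and 6.38 CPM in MG of the 4 libraries, from 287, 5287, 1202 and 50 UMIs. The highest library thus exceeded the lowest 44.6-fold, and each AAV had 1 high and 1 low library. *Vim*, vimentin (chromosome 2 from 13578738 to 13587639), stood at 934, 1458, 878 and 1057 CPM, and its highest level was 1.66-fold the lowest. *Nes*, nestin, a filament of neural progenitors, stood at 14.0, 69.4, 17.7 and 31.8 CPM. Cells of equal depth showed the same order for *Gfap*: in MG thinned to 2000 UMIs, 4.62%, 28.2%, 14.5% and 1.08% of 1190, 2028, 710 and 930 cells had a *Gfap* UMI, with exact 95% binomial intervals of 3.50% to 5.97%, 26.3% to 30.2%, 12.0% to 17.3% and 0.517% to 1.97%. Without thinning the shares were 10.2%, 37.3%, 36.7% and 2.01%. Intervals cover counting error only. *Vim* was seen in 77.6%, 85.0%, 67.3% and 79.8% of the thinned cells. Transcripts of *Pax2*, a defining marker of retinal astrocytes, which also make GFAP, were at 0, 2.80, 0 and 0.255 CPM in MG. All 52 *Pax2* UMIs of *mKate2* AAV replicate 2 lay in 1 unnamed cluster led by immediate-early genes, where *Gfap* stood at 272 CPM, against 294 CPM in the other MG of that library. In another unnamed cluster, led by *Dapl1* and *Gstp1*, astrocyte markers were the highest, with 1 of them detected. It held 102 MG of *mKate2* AAV replicate 1 and 87 of *Yap5SA* AAV replicate 1, with *Gfap* at 71.2 and 221 CPM and 0 *Pax2* UMIs. The part of astrocytes in these levels was not tested.

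The secreted proteins, summed over MG, were lowest in *Yap5SA* AAV replicate 3. *Lcn2*, lipocalin 2, an iron-binding acute-phase protein (chromosome 2 from 32274645 to 32278264), stood at 1217, 1245, 562 and 29.7 CPM in MG. *Serpina3n*, a serine protease inhibitor (chromosome 12 from 104372810 to 104380597), stood at 221, 471, 202 and 14.0 CPM, and *Timp1*, an inhibitor of matrix metalloproteinases (chromosome X from 20736316 to 20740976), at 31.4, 52.6, 32.2 and 2.43 CPM. In *Yap5SA* AAV replicate 3 each of these genes was under every other library, as was *Gfap*. The exact 95% Poisson interval of *Lcn2* was 26.0 to 33.8 CPM there and 547 to 577 CPM in *Yap5SA* AAV replicate 1, the next lowest. The same library was lowest by share of cells at 2000 UMIs: *Lcn2* was seen in 12.2%, 24.4%, 15.4% and 2.04% of MG, *Serpina3n* in 11.8%, 28.6%, 19.9% and 2.69% and *Timp1* in 2.61%, 5.33%, 3.24% and 0.645%. In microglia, which should hold little of these transcripts, a *Lcn2* UMI was seen in 3.57%, 4.23%, 0% and 1.85% of 28, 757, 136 and 54 cells of that depth, so by share alone MG of *Yap5SA* AAV replicate 3 could not be told from these 54 microglia, although by summed UMIs they held more *Lcn2*, as given with the comparison of both classes. A *Serpina3n* UMI was seen in 0%, 1.72%, 0% and 0% of these microglia. *Lcn2* UMIs lay in few cells, since the tenth of the MG with most of them held 98.5%, 89.1%, 93.8% and 100% of the *Lcn2* UMIs, compared with 28.7% to 34.6% for *Vim*. Of MG at 2000 UMIs, 80.1%, 45.4%, 61.4% and 94.8% had no UMI of *Gfap*, *Lcn2*, *Serpina3n* or *Timp1*. Reads shared with close paralogs of *Serpina3n* in its cluster are not assigned by unique mapping, so its level is uncertain.

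MG of the 4 libraries lay largely in different clusters named MG. One cluster held 771 of the 1498 MG of *mKate2* AAV replicate 1, a pair held 714 and 890 of the 2898 MG of *mKate2* AAV replicate 2, another 479 of the 803 MG of *Yap5SA* AAV replicate 1 and another 672 of the 1341 MG of *Yap5SA* AAV replicate 3. The difference in *Lcn2* between the 9.0.1 libraries varied with the cluster. It stood at 1398 CPM in *mKate2* AAV replicate 2 and 71.9 CPM in *Yap5SA* AAV replicate 3 in 1 shared cluster (714 and 130 MG), at 818 and 235 CPM in another (890 and 31 MG), at 33.7 and 8.16 CPM in another (261 and 672 MG) and at 15.2 and 9.80 CPM, from 14 and 22 UMIs, in another (73 and 125 MG). In the remaining shared clusters named MG it stood at 1663 and 304 CPM (395 and 27 MG) and, in the 1 led by lens crystallins, at 714 CPM and 0 UMIs (43 and 30 MG). In an unnamed cluster it stood at 116 and 119 CPM, from 11 and 59 UMIs in 35 and 170 MG. The part of the mix of clusters in the summed levels was not tested.

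**Figure D1:**
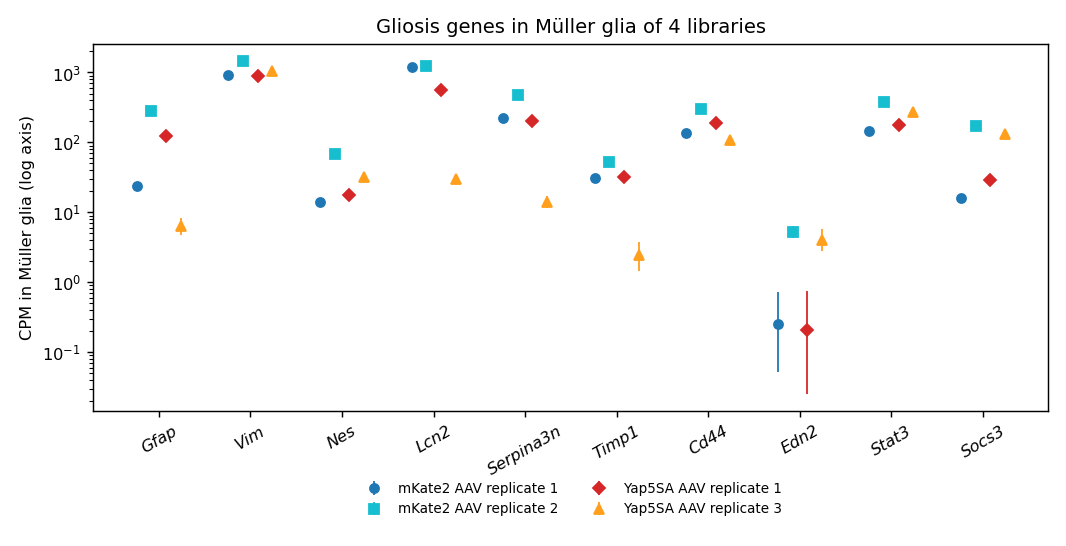
CPM (log axis) of the 10 genes in MG of the 4 libraries, with exact 95% Poisson intervals as bars where they exceed the symbol. *Gfap*, *Lcn2*, *Serpina3n* and *Timp1* are lowest in *Yap5SA* AAV replicate 3, at 6.38, 29.7, 14.0 and 2.43 CPM, and all 10 genes are highest in *mKate2* AAV replicate 2. MG outside clusters named MG are included, without which *Lcn2*, *Stat3* and *Cd44* are not highest in that library.

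The 250 bases upstream of the start site (RefSeq, GRCm38.p6) are shown for *Lcn2*, *Serpina3n*, *Timp1* and *Gfap*, the genes that were low together in *Yap5SA* AAV replicate 3, and for *Socs3*, which followed the immediate-early cluster. In lower case, with motif matches in capitals, 5′ to 3′ on the gene's strand, they read:
Lcn2: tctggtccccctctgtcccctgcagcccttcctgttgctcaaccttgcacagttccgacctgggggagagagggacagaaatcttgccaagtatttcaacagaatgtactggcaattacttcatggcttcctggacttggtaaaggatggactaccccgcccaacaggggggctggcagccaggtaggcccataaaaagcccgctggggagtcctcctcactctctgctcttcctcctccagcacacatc
Serpina3n: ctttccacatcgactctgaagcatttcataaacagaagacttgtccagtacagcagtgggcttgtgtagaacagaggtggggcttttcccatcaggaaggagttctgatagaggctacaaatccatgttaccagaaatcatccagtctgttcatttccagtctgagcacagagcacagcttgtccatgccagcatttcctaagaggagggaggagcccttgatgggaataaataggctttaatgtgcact
Timp1: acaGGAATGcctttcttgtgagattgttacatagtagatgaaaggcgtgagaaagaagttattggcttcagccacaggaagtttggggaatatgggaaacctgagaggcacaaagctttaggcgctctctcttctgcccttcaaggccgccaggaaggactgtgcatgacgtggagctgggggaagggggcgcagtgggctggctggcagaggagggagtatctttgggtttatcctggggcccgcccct
Gfap: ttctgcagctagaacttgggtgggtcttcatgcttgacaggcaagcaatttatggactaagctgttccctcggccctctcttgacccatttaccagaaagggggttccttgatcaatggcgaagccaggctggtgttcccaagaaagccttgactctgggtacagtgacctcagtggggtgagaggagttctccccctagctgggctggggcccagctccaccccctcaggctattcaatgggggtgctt
Socs3: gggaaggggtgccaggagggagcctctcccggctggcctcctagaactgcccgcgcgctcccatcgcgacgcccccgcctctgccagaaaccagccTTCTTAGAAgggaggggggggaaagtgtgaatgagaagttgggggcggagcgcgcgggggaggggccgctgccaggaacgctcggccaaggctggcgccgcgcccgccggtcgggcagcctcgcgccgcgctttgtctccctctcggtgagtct
Both strands were searched for the STAT motif TTCNNNGAA. The AP-1 motif, bound by FOS and JUN proteins, was TGANTCA. That of TEAD, the DNA-binding partner of YAP, was CATTCC. No match overlapped another in these windows. The capitals mark 1 STAT match in *Socs3*, beginning 154 bases before the start, and 1 TEAD match in *Timp1*, 247 bases before it. *Lcn2*, *Serpina3n* and *Gfap* have no match to these letters in this window, which says nothing of sites elsewhere. Of the other members, *Stat3* has 2 TEAD matches, and *Vim*, *Nes*, *Cd44* and *Edn2* have none. Of all 32851 windows of this length, 7.02% held a STAT, 6.75% an AP-1 and 12.6% a TEAD match. The windows lie at chr2:32387740-32387989, chr12:104406458-104406707, chrX:20869916-20870165, chr11:102897201-102897450 and chr11:117969367-117969616 in the order shown, on the minus strand except for *Serpina3n* and *Timp1*.

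*Edn2*, endothelin 2, a vasoactive peptide known to be released by stressed photoreceptors, was nearly absent from MG. Its 3, 97, 2 and 32 UMIs gave 0.253, 5.22, 0.208 and 4.09 CPM. Both libraries with more of it also held rods, where *Edn2* stood at 173 CPM in *mKate2* AAV replicate 2 and 59.0 CPM in *Yap5SA* AAV replicate 3. MG of these libraries held 3.02% and 6.93% of the *Edn2* level of rods, and 3.08% and 3.35% of the rod marker level of rods. At 2000 UMIs *Edn2* was seen in 0 of 1190, 11 of 2028, 1 of 710 and 2 of 930 MG, with a limit of 0.252% for the first library from 3 counts. It was seen in 25.6% and 6.48% of rods. Of the *Edn2* UMIs of MG in these libraries, 58.8% and 84.4% lay in the cluster led by immediate-early genes, at 6.96 and 14.5 CPM, against 3.85 and 0.837 CPM in the other MG. The part of rod RNA in the *Edn2* counts of MG was not tested.

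The signalling genes *Stat3* and *Socs3* followed another order. *Stat3*, the transcription factor downstream of gp130 (chromosome 11 from 100775924 to 100830450), stood at 145, 374, 176 and 274 CPM in MG. *Socs3*, the feedback inhibitor (chromosome 11 from 117856905 to 117860898), stood at 15.9, 171, 29.1 and 130 CPM. Both were higher in each library of Cell Ranger 9.0.1 than in either of 8.0.0, as were *Vim*, *Nes* and *Edn2*, and as was the sum of the dissociation stress genes. The share of all genes with that order was not counted, so it cannot be called particular to these genes. *Cd44*, the hyaluronan receptor (chromosome 2 from 102641486 to 102732010), stood at 139, 296, 186 and 109 CPM and did not share that order. At 2000 UMIs per cell *Stat3* was seen in 23.2%, 24.6%, 28.6% and 20.5% of MG, *Cd44* in 19.2%, 21.8%, 24.4% and 12.6% and *Socs3* in 2.10%, 8.78%, 4.37% and 5.16%. *Socs3* was seen in 21.4%, 9.38%, 28.7% and 20.4% of microglia of that depth.

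Most UMIs of *Socs3* and *Stat3* in these 2 libraries came from a small cluster of deep cells. It was led by immediate-early genes (*Maff*, *Fosl1*, *Arc*, *Egr3*, *Egr2* and others), had no cell type name by its markers, astrocyte markers being the highest, and a median of 24770 UMIs per cell. It held 248 MG of *mKate2* AAV replicate 2 and 57 of *Yap5SA* AAV replicate 3, and 0 of the other libraries. These cells carried 87.5% and 87.9% of the *Socs3* UMIs of MG, 76.4% and 63.7% of those of *Stat3* and 73.5% and 70.3% of those of *Nes*. As deep cells they held a large part of other UMIs too, with 38.6% and 19.3% of those of *Vim*. The same cells held 58.8% and 84.4% of the *Edn2* UMIs of MG. In *mKate2* AAV replicate 2 they also held all 52 *Pax2* UMIs of MG and 208 of the 235 UMIs of *Pdgfra*, another astrocyte marker in the retina. In *Yap5SA* AAV replicate 3 they held 4 of the 28 *Pdgfra* UMIs and 0 of the 2 *Pax2* UMIs of MG. *Socs3* stood at 340 CPM in them and 38.4 CPM in the other MG of *mKate2* AAV replicate 2, and at 483 CPM and 20.8 CPM in *Yap5SA* AAV replicate 3. *Stat3* stood at 648 CPM against 158 CPM and at 735 CPM against 131 CPM, and *Cd44* at 479 CPM against 152 CPM and at 176 CPM against 87.9 CPM. Dissociation stress genes summed to 57028 and 58638 CPM there, against 6845 and 7048 CPM in the other MG of the same libraries. *Lcn2* did not move with them in the same way: it stood at 1477 CPM in these cells and 1063 CPM outside in *mKate2* AAV replicate 2, and at 6.46 CPM and 37.0 CPM in *Yap5SA* AAV replicate 3, where *Gfap* had 0 UMIs in the cluster. The cluster was found in the same cells, so these values are a description. Doublets were not removed, and the part of dissociation or of astrocytes in these levels was not tested.

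**Figure D2:**
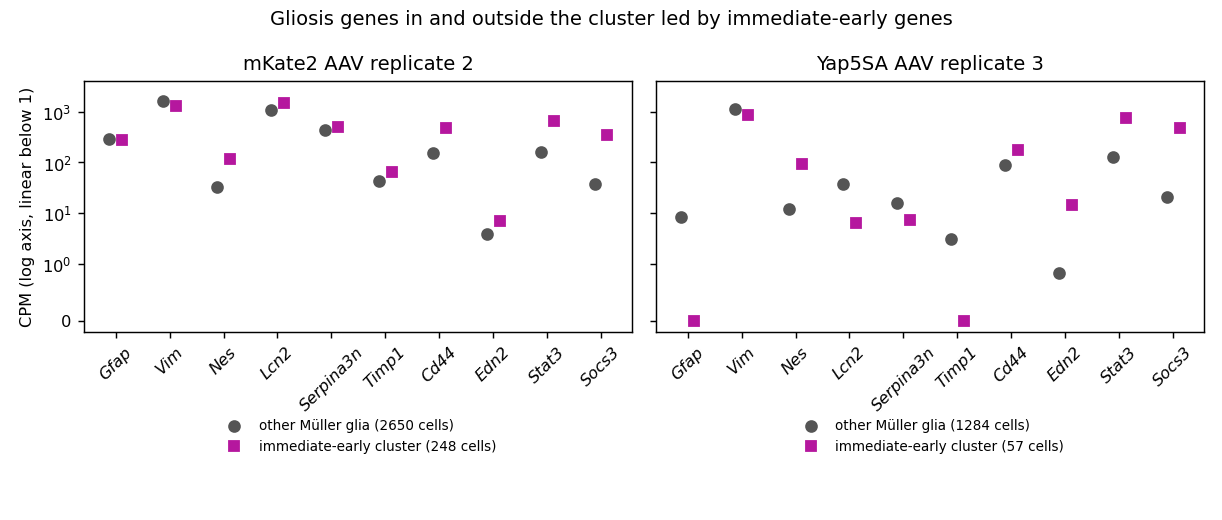
CPM (log axis, linear below 1) of the 10 genes in MG of the cluster led by immediate-early genes (squares) and in the other MG (circles) of the 2 libraries that hold it. *Socs3*, *Stat3*, *Nes* and *Cd44* are higher in the cluster in both libraries, whereas *Vim* is lower in both.

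With MG limited to clusters named MG, *Stat3* stood at 143, 143, 179 and 138 CPM and *Socs3* at 13.5, 32.8, 28.4 and 24.1 CPM. *Nes* then stood at 14.4, 34.0, 18.7 and 13.8 CPM and *Cd44* at 143, 162, 197 and 102 CPM. Neither *Stat3* nor *Socs3* was then higher in both 9.0.1 libraries than in both 8.0.0 libraries, and *Nes* was high in *mKate2* AAV replicate 2 alone, whereas *Vim* kept that order at 919, 1659, 861 and 1192 CPM. *Edn2* stood at 0.265, 1.36, 0 and 0.619 CPM. The low levels of the other genes in *Yap5SA* AAV replicate 3 were still there: *Gfap* stood at 22.5, 327, 121 and 7.22 CPM and *Lcn2* at 1267, 1082, 578 and 30.5 CPM. *Serpina3n* stood at 223, 387, 214 and 13.2 CPM and *Timp1* at 32.4, 46.6, 33.5 and 1.65 CPM.

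Levels were also read by the depth of the cell. In MG of over 10000 UMIs, *Socs3* stood at 19.4, 280, 30.3 and 232 CPM, compared with 8.59, 31.7, 25.9 and 16.6 CPM in MG of 5000 to 10000 UMIs. In *mKate2* AAV replicate 2 and *Yap5SA* AAV replicate 3 these deepest MG held 2969 and 974 *Socs3* UMIs. The immediate-early cluster, itself of deep cells, held 2787 and 898. Depth and cluster were not separated here. *Gfap* was lower in the deepest than in the shallowest MG of every library, with 51.5, 430, 175 and 13.3 CPM in MG of 1000 to 2000 UMIs and 21.3, 243, 124 and 0.951 CPM in those over 10000. *Lcn2* was not ordered by depth in the same way, at 349, 706, 328 and 69.6 CPM in the shallowest and 1705, 1312, 616 and 3.57 CPM in the deepest MG.

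**Figure D3:**
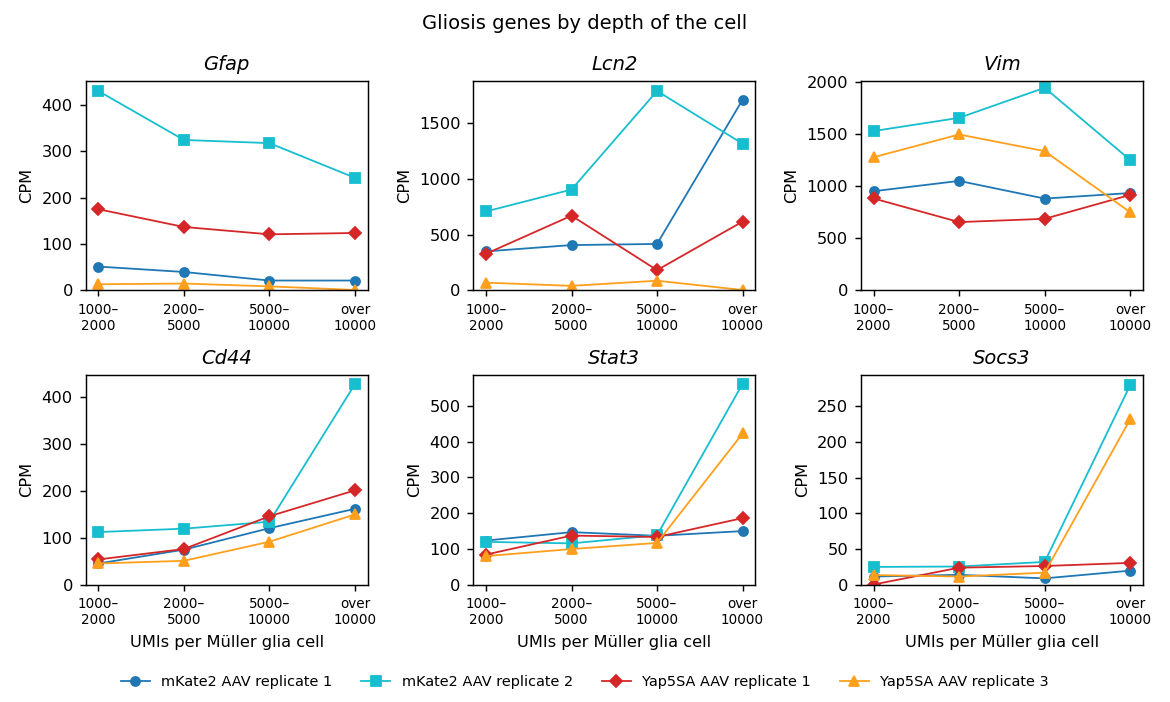
CPM of 6 of the genes in MG of each library by UMIs per cell. *Socs3* and *Stat3* are highest above 10000 UMIs in *mKate2* AAV replicate 2 and *Yap5SA* AAV replicate 3, the libraries with the immediate-early cluster. *Socs3* is at 280 and 232 CPM there, against 19.4 and 30.3 CPM in the other libraries.

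Part of the *Serpina3n* UMIs came from clusters not named MG. Cells that met the MG rule in the pigment epithelium cluster, led by *Ttr*, *Rgr* and *Rpe65*, numbered 83 (0, 20, 3 and 60 by library) and had 0 *Gfap* UMIs. *Serpina3n* stood at 3777 CPM in the 20 cells of *mKate2* AAV replicate 2 (498 of the cluster's 527 UMIs) and at 57.9 CPM in the 60 cells of *Yap5SA* AAV replicate 3. Without this cluster *Serpina3n* in MG stood at 448 CPM in *mKate2* AAV replicate 2 and 11.3 CPM in *Yap5SA* AAV replicate 3. An unnamed cluster led by *Igfbp2*, *Apod*, *Igfbp7*, *Rgs5* and *Mgp*, of which *Rgs5* is a known pericyte gene, held 114 MG, 110 of them from *mKate2* AAV replicate 2. In these 110 cells *Serpina3n* stood at 980 CPM, *Lcn2* at 1571 CPM, *Gfap* at 210.1 CPM and *Vim* at 2515 CPM. Their part in the levels of that library was not tested, and the levels within clusters named MG leave both clusters out. Within a cluster, levels also differed between libraries: in the MG cluster led by *Piezo2*, *Steap4*, *Lcn2* and *C3*, *Lcn2* stood at 6952 CPM in 83 cells of *mKate2* AAV replicate 1 and at 603 CPM in 479 cells of *Yap5SA* AAV replicate 1. The 10 genes were not used for clustering.

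Whether *Yap5SA* AAV changed the gliosis genes of MG was tested on UMIs summed over MG per library, 2 libraries against 2. Of 15285 genes, 0 (0% of genes tested) passed an adjusted p of 0.05 in edgeR's quasi-likelihood test and 0 in DESeq2, while 30 and 52 genes had unadjusted p values below 0.05. None of the 10 genes passed, and each had an adjusted p of 0.99994 by edgeR. On the log2 scale the change with *Yap5SA* AAV was −2.19 for *Lcn2* (SE 1.27), −1.84 for *Serpina3n* (SE 1.22), −1.45 for *Gfap* (SE 1.64), −1.43 for *Timp1* (SE 1.11) and −0.92 for *Nes* (SE 0.86). Those of *Cd44*, *Edn2*, *Vim*, *Socs3* and *Stat3* lay between −0.71 and −0.35. The median of the 10 was −0.81, compared with −0.03 for all genes tested. A common negative sign rested on 1 library: *mKate2* AAV replicate 2 was the highest of the 4 for all 10 genes, against 17.6% of genes tested. Without that library *Gfap*, *Vim*, *Nes*, *Edn2*, *Stat3*, *Socs3* and *Cd44* turned positive (0.07 to 3.05), whereas *Lcn2*, *Serpina3n* and *Timp1* stayed negative. Within clusters named MG it was not the highest for 3 genes. There *Lcn2* was at 1082 CPM against 1267 CPM in *mKate2* AAV replicate 1. *Stat3* (143 against 179 CPM) and *Cd44* (162 against 197 CPM) were highest in *Yap5SA* AAV replicate 1. *Yap5SA* AAV replicate 3 was the lowest for 5 of the 10, against 15.5% of genes tested.

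The groups did not overlap for *Lcn2*, at 1231 ± 19.9 CPM with *mKate2* AAV and 296 ± 376 CPM with *Yap5SA* AAV (SD, n = 2 each, exact permutation test, two-sided, p = 0.333). They did not overlap for *Serpina3n* either, at 346 ± 177 and 108 ± 133 CPM (SD, n = 2 each, exact permutation test, two-sided, p = 0.333). This p is the smallest that 2 against 2 allows, and groups did not overlap for 15.4% of all genes tested. *Gfap* gave 154 ± 184 and 65.6 ± 83.8 CPM (SD, n = 2 each), so the groups overlapped and their means differed by less than the SD with *mKate2* AAV.

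Within each Cell Ranger version there is 1 library per AAV and no test. For *Gfap* the log2 ratio of *Yap5SA* to *mKate2* AAV was 2.37 in the 8.0.0 pair and −5.48 in the 9.0.1 pair. *Cd44* gave 0.43 and −1.44, *Socs3* 0.87 and −0.39, *Stat3* 0.28 and −0.45, *Nes* 0.34 and −1.13 and *Timp1* 0.04 and −4.44, so the direction differed between pairs for these genes. For *Nes* and *Timp1* the Poisson intervals of the 8.0.0 pair overlapped. *Lcn2* kept its direction at −1.12 and −5.39, as did *Serpina3n* at −0.13 and −5.07, *Vim* at −0.09 and −0.46 and *Edn2* at −0.28 and −0.35, the last from 2 and 3 UMIs in the 8.0.0 pair. How many of all genes differ in direction between the pairs was not counted. Version, sequencing and any other difference between captures cannot be told apart.

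Microglia- and macrophage-like cells, immune cells of the retina, were present in every library (32, 923, 156 and 65 cells) and gave the background for the glial genes. Of their 4 clusters, 1 was led by immunoglobulin genes beside *Lyz2*. They are called microglia here. MG were compared with them within libraries on summed UMIs, with 50.1% of 14409 genes called by edgeR, 29.0% of genes tested higher in MG and 21.1% lower. Of the 9 genes tested, 5 were higher in MG and 2 lower. *Serpina3n* was higher by a log2 fold change of 5.51 (SE 0.42, adjusted p = 1.67e-06 by edgeR), *Lcn2* by 5.18 (SE 0.55, adjusted p = 1.56e-05), *Timp1* by 4.50 (SE 0.50, adjusted p = 2.36e-05), *Gfap* by 2.90 (SE 0.85, adjusted p = 0.0144) and *Nes* by 2.74 (SE 0.52, adjusted p = 0.00108). *Cd44*, which leukocytes also carry, was lower in MG by a log2 fold change of −1.39 (adjusted p = 0.00337 by edgeR), at 385, 238, 508 and 278 CPM in microglia. In *mKate2* AAV replicate 2, however, *Cd44* was higher in MG, at 296 CPM. *Socs3* was lower by −2.33 (adjusted p = 0.00232 by edgeR), at 210, 182, 207 and 290 CPM in microglia. In *mKate2* AAV replicate 2 *Socs3* was close to that in MG, at 171 CPM, with overlapping Poisson intervals. *Vim* (0.07, adjusted p = 0.853) and *Stat3* (0.23, adjusted p = 0.496) were not called by edgeR. *Edn2* was too low to be tested.

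*Gfap* in MG of *Yap5SA* AAV replicate 3 did not exceed its level in microglia, but it exceeded that in rods. Microglia held 2.16, 17.3, 3.28 and 14.95 CPM of *Gfap*, the last from 8 UMIs, and MG 6.38 CPM in the last library. The exact 95% Poisson intervals there were 4.74 to 8.42 CPM in MG and 6.46 to 29.5 CPM in microglia. Rods of that library held 1 *Gfap* UMI in 590 cells (0.373 CPM, interval of 0.00945 to 2.08 CPM). At 2000 UMIs a *Gfap* UMI was seen in 10 of 930 MG and 2 of 54 microglia there (1.08% and 3.70%, exact 95% intervals of 0.517% to 1.97% and 0.452% to 12.7%). *Lcn2*, in contrast, stood at 29.7 CPM in MG and 1.87 CPM in microglia of that library (exact 95% Poisson intervals of 26.0 to 33.8 and 0.0473 to 10.41 CPM). The call for *Gfap* was lost without *mKate2* AAV replicate 2 (adjusted p = 0.061 by edgeR), without *Yap5SA* AAV replicate 1 (adjusted p = 0.105) and with MG of at least 5000 UMIs (adjusted p = 0.0622). That for *Cd44* was lost without *Yap5SA* AAV replicate 1 (adjusted p = 0.0534 by edgeR). With classes drawn by marker share in place of clusters, the calls for *Cd44* (adjusted p = 0.234) and *Socs3* (adjusted p = 0.0721) were lost.

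Of the other genes of the gp130 pathway and its relatives, 27 of 29 were tested between MG and microglia, with 8 higher and 8 lower in MG. Receptor genes and ligands were among the higher ones, with log2 fold changes of 6.39 for *Osmr*, the oncostatin M receptor, 5.42 for *Cntfr*, 4.57 for *Cntf*, 3.37 for *Lif* and 1.54 for *Il6st*, which encodes gp130. *Osm* (−10.36), *Il6ra* (−4.99) and *Jak2* (−0.97) were lower in MG. Of 31 other reactive glia genes tested, 15 were higher in MG, such as *Serping1* (6.16), *Steap4* (6.11), *A2m* (5.77) and *Ptx3* (5.61), and 11 lower, such as *Cd14* (−8.19) and *H2-D1* (−3.52). Shares of all genes called were 29.0% higher and 21.1% lower.

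Rods were numerous enough only in *mKate2* AAV replicate 2 (676 cells) and *Yap5SA* AAV replicate 3 (590 cells), so MG were compared with them on 2 libraries, with 1 residual degree of freedom. Of 14699 genes, 59.6% were called by edgeR, 34.4% of genes tested being higher in MG and 25.1% lower. Of the 10 genes, 8 were higher in MG, with log2 fold changes from 2.24 for *Socs3* to 6.26 for *Cd44*. *Edn2* was lower by −4.38 (SE 0.29, adjusted p = 1.54e-06 by edgeR), and *Stat3* was not called (−0.18, adjusted p = 0.535). *Stat3* was broadly present, at 494 and 325 CPM in rods, 330 and 255 CPM in bipolar-like cells and 365 and 874 CPM in cone-like cells of these libraries. *Serpina3n* was found in bipolar-like cells, at 127 CPM (297 cells) and 24.1 CPM (67 cells, interval of 16.3 to 34.5 CPM). The latter was no lower than in MG of the same library (14.0 CPM, interval of 11.5 to 16.9 CPM), whereas rods of the same libraries held 10.9 CPM and 0 UMIs. *Lcn2* in the same bipolar-like cells stood at 3.77 CPM and 0 UMIs, so the 2 genes did not keep the ratio they had in MG.

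**Figure D4:**
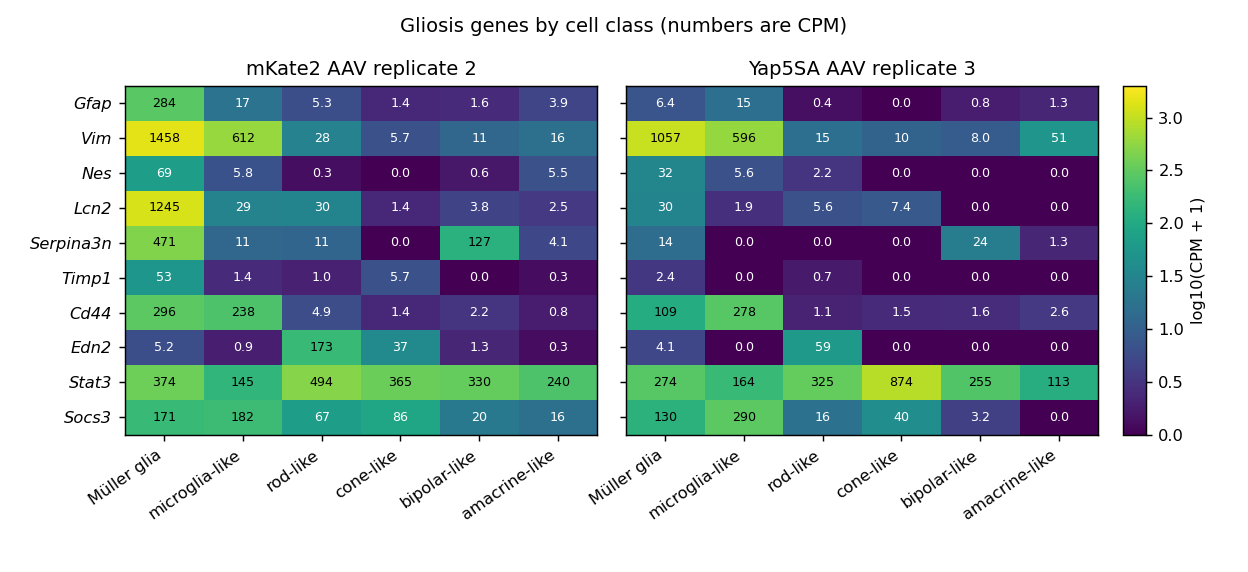
Level of the 10 genes by cell class in the 2 libraries with at least 20 cells of each class shown, coloured by log10(CPM + 1) with the CPM printed in each cell. *Edn2* is highest in rods, at 173 and 59.0 CPM, *Serpina3n* is at 127 and 24.1 CPM in bipolar-like cells, and *Stat3* is present in every class.

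Cells with a *Lcn2* UMI were then compared with the other MG of the same library, to ask which gliosis genes a cell holds together. Cells were first thinned to 2000 UMIs, leaving out 308, 870, 93 and 411 shallower MG, and the 145, 495, 109 and 19 cells with a *Lcn2* UMI were summed per library. EdgeR called 1.32% of 9600 genes, 1.05% of genes tested being higher in these cells. The fit had 3 residual degrees of freedom, and its p values also use the spread of the other genes. The filter on low counts kept a gene by its level in either set of cells. A gene low in cells without a *Lcn2* UMI, such as *Timp1*, could thus enter through the cells with one. Of the 8 members tested, 3 were higher and 0 lower, and the median log2 fold change of the 8 was 0.73, compared with −0.04 for all genes tested. *Timp1* stood at 148, 127, 91.7 and 78.9 CPM in cells with a *Lcn2* UMI and at 4.78, 12.4, 9.15 and 2.20 CPM in cells without (log2 fold change 3.91, SE 0.29, adjusted p = 9.17e-39 by edgeR). *Serpina3n* stood at 910, 738, 413 and 237 CPM with and at 44.5, 270, 125 and 13.7 CPM without (log2 fold change 2.60, SE 0.20, adjusted p = 3.14e-34 by edgeR). *Gfap* stood at 79.3, 462, 151 and 78.9 CPM with and at 22.5, 249, 108 and 8.78 CPM without (log2 fold change 1.10, SE 0.22, adjusted p = 1.21e-04 by edgeR). All 3 were higher in 4 of 4 libraries. Those of *Timp1* and *Gfap* in *Yap5SA* AAV replicate 3 rest on 3 UMIs each. The call for *Gfap* was lost without *mKate2* AAV replicate 2 (adjusted p = 0.0632 by edgeR), by DESeq2 (0.0555) and at 1000 UMIs per cell (0.11). Without *Yap5SA* AAV replicate 3, where 19 MG had a *Lcn2* UMI, all 3 were still called.

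The remaining members gave no call. *Cd44* was higher in 4 of 4 libraries, at 190, 174, 202 and 132 CPM with a *Lcn2* UMI and 101, 143, 146 and 75.2 CPM without (log2 fold change 0.59, SE 0.20, adjusted p = 0.153 by edgeR). *Vim* gave 0.39 (adjusted p = 0.417), *Nes* 0.86 (0.403), *Stat3* 0.12 (0.999) and *Socs3* −0.28 (0.999), all adjusted p by edgeR. *Stat3* was higher in cells with a *Lcn2* UMI in 3 libraries and lower in *mKate2* AAV replicate 2, at 155 CPM against 201 CPM.

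**Figure D5:**
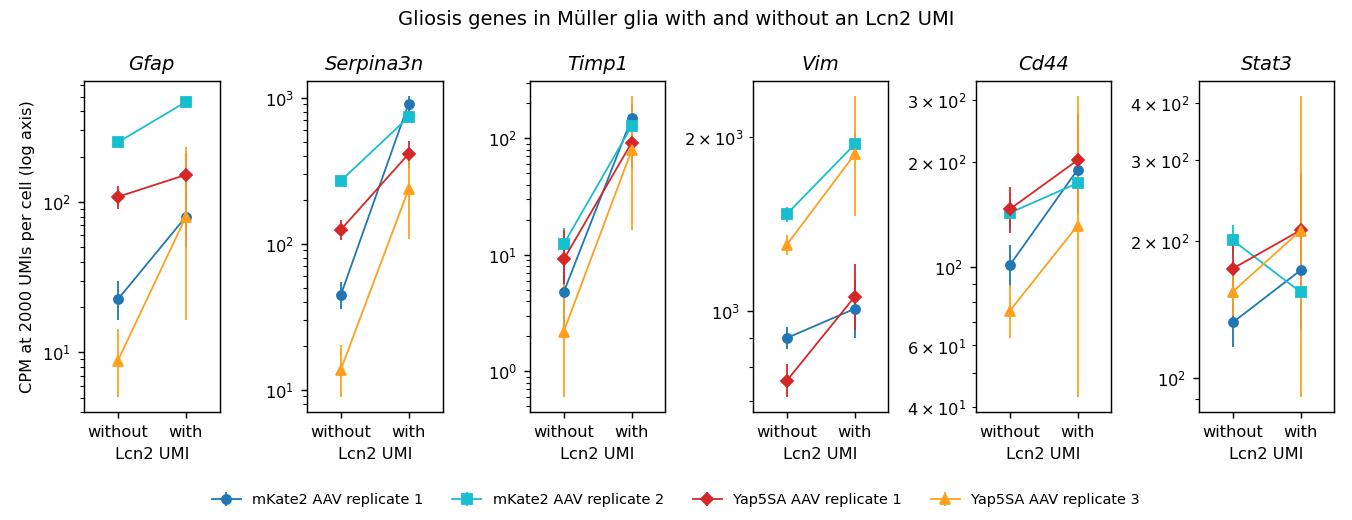
CPM (log axis) of 6 genes in MG without and with a *Lcn2* UMI at 2000 UMIs per cell, 1 line per library, with exact 95% Poisson intervals. *Serpina3n*, *Timp1* and *Gfap* are higher with a *Lcn2* UMI in all 4 libraries, and *Stat3* is lower in *mKate2* AAV replicate 2, at 155 against 201 CPM.

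Other reactive glia genes were higher in the same cells. Of 23 tested, 12 were higher in cells with a *Lcn2* UMI and 0 lower, whereas 1.05% of all genes were higher. They included *C3*, the third complement component (log2 fold change 3.78), *Steap4*, a metalloreductase (3.096), *Iigp1* (1.98) and *Gbp2* (1.20), which interferon induces, *A2m* (1.68), *Serping1*, the C1 inhibitor (1.49), and *Cp*, ceruloplasmin (1.05). *C3* stood at 345, 285, 697 and 52.6 CPM with a *Lcn2* UMI and at 4.78, 37.5, 69.9 and 2.74 CPM without. Of the 17 gp130 pathway genes tested 0 were called. The 5 genes with the smallest p among those higher were *C3*, *Timp1*, *Serpina3n*, *Steap4* and *Crhbp* (7.47), the last from 3, 16, 4 and 24 UMIs in cells with a *Lcn2* UMI. *Timp1* and *Crhbp* are genes that could enter the test through the cells where they are high. *Crhbp* was also a leading gene of an unnamed cluster (*Ifitm1*, *Fbln1*, *Crhbp*, *Optc*) of 41 cells, 48.8% of which met the MG rule. In *Yap5SA* AAV replicate 3 it stood at 632 CPM with and 0.549 CPM without a *Lcn2* UMI. The part of such cells in the split was not tested, and within clusters named MG *Timp1*, *Serpina3n* and *Gfap* were still called.

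Cells with a *Gfap* UMI also held more of the secreted genes. The 55, 572, 103 and 10 MG with one were compared in the same way, with 0.373% of 9643 genes called and 0.124% of genes tested higher. *Lcn2* stood at 2255, 1586, 529 and 700.0 CPM with a *Gfap* UMI and 656, 796, 442 and 27.7 CPM without (log2 fold change 1.46, SE 0.29, adjusted p = 5.11e-04 by edgeR). In *Yap5SA* AAV replicate 3 only 2 of the 10 cells with a *Gfap* UMI held a *Lcn2* UMI. *Serpina3n* gave 1.25 (SE 0.25, adjusted p = 5.11e-04) and *Timp1* 1.40 (SE 0.34, adjusted p = 0.0191), both higher in 4 of 4 libraries, *Timp1* with 1 UMI in *Yap5SA* AAV replicate 3. *Vim* stood at 1364, 1967, 1107 and 2200 CPM with and 891, 1439, 754 and 1305 CPM without, but was not called (0.51, SE 0.27, adjusted p = 0.631 by edgeR). DESeq2 called none of the 10 genes, edgeR called none without *mKate2* AAV replicate 1 and only *Lcn2* without *Yap5SA* AAV replicate 1. Without *mKate2* AAV replicate 2 the call for *Timp1* was lost (adjusted p = 0.657 by edgeR), and within clusters named MG it was too (0.07). *Nes* was called within clusters named MG (1.45, adjusted p = 0.0488 by edgeR) and at 1000 UMIs per cell (1.78, adjusted p = 0.00355), but not at 2000 UMIs (0.82, adjusted p = 0.474). Without *Yap5SA* AAV replicate 3, whose share of MG with a *Gfap* UMI did not exceed that of microglia, 4 of the 10 were called, *Vim* being the addition (adjusted p = 0.0475 by edgeR). Of the other reactive glia genes, 2 of 22 tested were higher (*Iigp1*, 1.54, and *Gbp2*, 0.99). The 5 genes with the smallest p among those higher were *Ccl2*, *Lcn2*, *Serpina3n*, *Tagln2* and *Tgtp2*. *Ccl2* had 1, 46, 0 and 35 UMIs in cells with a *Gfap* UMI, the last in 10 cells. Whether the 2 splits differ was not tested.

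Pairs of genes were also counted in single cells. *Lcn2* and *Serpina3n* were seen together in 82, 238, 42 and 5 MG at 2000 UMIs, where 17.2, 142, 21.6 and 0.511 would share them if unrelated. *Lcn2* and *Timp1* were seen together in 23, 76, 13 and 2 MG, against 3.78, 26.4, 3.53 and 0.123. *Stat3* and *Socs3* were seen together in 1, 101, 11 and 30 MG, against 5.80, 43.8, 8.86 and 9.86, so the excess was in the 2 libraries with the immediate-early cluster. Pearson's r of log counts across MG at 2000 UMIs was averaged over 4 libraries, with 10307 genes compared. By this mean the genes most like *Lcn2* were *C3* (0.42), *Serpina3n* (0.40) and *Timp1* (0.38). Those most like *Serpina3n* were *Lcn2* (0.40), *C3* (0.32) and *Trf* (0.28), and those most like *Vim* were *Dbi* (0.34), *Gapdh* (0.30) and *Tuba1a* (0.29). No gene exceeded 0.14 for *Gfap*. These values share library and depth and are a description.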

How the data were processed

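The authors sorted tdTomato+ retinal cells, made 10x 3′ v3.1 libraries and deposited UMI counts, not normalized, for each gene in each cell, from Cell Ranger on GRCm39. The labels name version 8.0.0 for all libraries and file headers 9.0.1 for 2 of them. Whether intronic reads were counted is not given in the sources used here. Counts of 3′ ends carry no length correction, so levels are compared within a gene.

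The 10 genes, the 4 gene lists and the tests were chosen with earlier results of these data known. CPM is UMIs per 1000000 UMIs of the summed cells, with exact 95% Poisson intervals, and a share of 0 allows up to 3 counts of the total. Libraries held 13132765 to 50938304 UMIs and their MG 7833275 to 18588061. Cells were clustered without the 10 genes and the lists (3000 variable genes, 30 components, k = 15, Leiden resolution 1, 33 clusters), and named by at least 3 detected markers of 12 cell types. Variable genes came from the Seurat dispersion method. The authors' integration and annotation were not repeated, and doublets were not removed. A class needed at least 20 cells in a library.

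UMIs were summed per library and class and fitted with edgeR's quasi-likelihood model (TMM, filterByExpr, Benjamini-Hochberg, threshold 0.05), with library as a block in comparisons of cells within libraries. DESeq2 was an alternative. Others were normalization, filters on low counts, quality and marker limits, thinning, Cell Ranger version as a term, a replicate block and leaving out each library. MG limited to named clusters or without the pigment epithelium cluster were chosen after seeing the data. The fits were tested on simulated data. Genes named are the 10, members of the lists past the threshold, the 3 genes most like a member and the 5 smallest p among genes higher in each split. Tools were Python 3.11.15, scanpy 1.11.5, leidenalg 0.10.2, scipy 1.17.1, R 4.3.3, edgeR 4.0.16, limma 3.58.1 and DESeq2 1.42.0.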

Additional observations from a re-analysis of the deposited data

Results flagged for a closer look

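For 4 of the 10 genes the difference between *Yap5SA* and *mKate2* AAV pointed in opposite directions in the 2 pairs of libraries made with the same Cell Ranger version, with Poisson intervals apart in both pairs. The log2 ratio of the 9.0.1 pair minus that of the 8.0.0 pair was −7.85 for *Gfap*, −1.87 for *Cd44*, −1.26 for *Socs3* and −0.73 for *Stat3*. With 1 library per AAV and version, these differences were not tested. The share of all genes that meet the same criterion was not counted. Opposite directions therefore cannot be called particular to these genes.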

How the results depend on the processing

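The effect of *Yap5SA* AAV gave 0 called genes under every alternative run, including the 5 libraries with replicate block (0 called, 855 at an unadjusted p under 0.05), where replicate numbers do not pair animals or batches. With that block *Gfap* was 0.40, and with processing version as a term *Socs3* was 0.12, both of opposite sign to the values reported. Leaving out each library gave ranges of −4.75 to 1.44 for *Gfap*, −0.79 to 0.074 for *Vim*, −1.68 to 0.85 for *Nes*, −3.87 to 3.05 for *Edn2*, −0.93 to 0.66 for *Stat3*, −1.89 to 2.36 for *Socs3* and −1.21 to 0.10 for *Cd44*. The highest value came without *mKate2* AAV replicate 2 for each of these. Over all alternatives, leaving out libraries included, 167 values of the 10 genes had the direction reported and 11 the opposite one.

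Against microglia, *Vim* was −0.10 with MG of at least 5000 UMIs and −0.077 to 0.40 without each library, and 6 calls of the 9 genes over all alternatives were lost. Against rods, *Stat3* was 0.13 with MG of at least 5000 UMIs and 0.059 with classes by marker share. Rods were in 2 libraries, so no library could be left out there.

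Between MG with and without a *Gfap* UMI, 36 genes were called, against 2 by DESeq2, 72 with cells thinned to 5000 UMIs and 16 within clusters named MG. The count was 3 without *mKate2* AAV replicate 2, 16 without *mKate2* AAV replicate 1, 10 without *Yap5SA* AAV replicate 1 and 115 without *Yap5SA* AAV replicate 3. Of the 10 genes, 3 were called, 0 by DESeq2, 3 within clusters named MG and 4 at 1000 UMIs, both counting *Nes*, and between 0 and 4 without each library. *Stat3* was −0.017 by DESeq2, −0.049 without a filter, −0.40 at 1000 UMIs, −0.19 at 5000 UMIs and −0.19 to 0.30 without each library. *Socs3* was 0.079 within clusters named MG and −0.64 to 0.22 without each library.

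Between MG with and without a *Lcn2* UMI, 127 genes were called (101 higher, 26 lower), 169 with cells thinned to 5000 UMIs (91 higher, 78 lower), 50 by DESeq2, 51 at 1000 UMIs and between 66 (without *mKate2* AAV replicate 2) and 103 (without *mKate2* AAV replicate 1) without each library. It was 69 without *Yap5SA* AAV replicate 1 and 82 without *Yap5SA* AAV replicate 3. Without a filter on low counts 131 genes were called, 89 higher and 42 lower. At 1000 UMIs 1 of the 10 genes was called, where *Timp1* was too low to be tested. *Stat3* was −0.027 at 1000 UMIs and −0.11 at 5000 UMIs, and *Socs3* was 0.27 within clusters named MG. The calls for *Serpina3n* held under every alternative, and those for *Timp1* wherever it was tested. The cause of these changes was not tested. Depth limits *Edn2*, *Nes* and *Timp1* most, and shares of cells with a UMI count molecules seen, not cells that express a gene.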

Other observations

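The tdTomato transcript, the label used for sorting, was listed in the gene tables of *mKate2* AAV replicate 1 and *Yap5SA* AAV replicate 1. Over all UMIs of MG with at least 2000 UMIs, split by whether a *Gfap* UMI was seen after thinning, it stood at 142.5 CPM with and 151 CPM without in the former (exact 95% Poisson intervals of 113 to 178 and 144 to 159 CPM) and at 205 and 193 CPM in the latter (183 to 230 and 184 to 203 CPM). Split by *Lcn2* in the same way, it stood at 122 CPM with and 156 CPM without (106 to 140.0 and 148 to 164 CPM) and at 216 and 191 CPM (194 to 239 and 181 to 201 CPM), lower with a *Lcn2* UMI in 1 library and higher in the other.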
